A study of Mus musculus with 6 samples.

Results

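The genes of matrix metalloproteinases (Mmp), of ADAMTS proteases (Adamts), of ADAMTS-like proteins (Adamtsl) and of tissue inhibitors of metalloproteinases (Timp) were followed in glycerol-injured mouse muscle with and without melatonin. Members were all protein-coding genes whose symbol is one of these 4 family names followed by a number, a rule on names alone. The table held 43 of them among 16289 genes, 16 Mmp, 18 Adamts, 5 Adamtsl and 4 Timp genes, and all 43 passed the filter on low counts. A further 7 genes of the annotation with such symbols were not analysed here. The libraries were RNA-seq read counts of whole tibialis anterior, the shin muscle, collected on day 14 after glycerol injection. The groups were glycerol+melatonin (glycerol injection with melatonin, 3 mice) and glycerol (glycerol injection with a control treatment, 3 mice). All mice were 12-week-old wild-type male C57BL/6J animals, both groups had received glycerol, and no uninjured muscle was analysed here. How much melatonin was given, by which route and when, and what the control treatment was, is not stated in the labels used here, and the extraction text of the labels names a back muscle in place of the tibialis anterior.

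Glycerol injected into muscle destroys fibres, which then regenerate while fat and connective tissue accumulate between them. Matrix metalloproteinases are zinc enzymes that cut collagens, laminins and other matrix proteins, and most are made as inactive precursors. ADAMTS proteases are secreted relatives that trim procollagens, cut proteoglycans such as versican and aggrecan, or act on fibrillin microfibrils. ADAMTS-like proteins share the accessory domains but have no protease domain. The 4 TIMP proteins bind the active site of metalloproteinases, and TIMP2 also takes part in the activation of MMP2 by the membrane protease MMP14.

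Total counts ran from 39310361 to 48879045 per library, and log2 CPM (counts per 1000000 reads of the TMM-scaled library) correlated at 0.964 to 0.977 within groups and at 0.947 to 0.972 between groups. The 7 muscle fibre markers were present in every library, with a summed level of 79111 to 124059 CPM in glycerol+melatonin and of 112016 to 135585 CPM in glycerol muscle. Members were measured with at least 6 counts in every library, and 36 of the 43 had a mean of at least 1 CPM. In bulk tissue, fewer cells of a type and less RNA per cell cannot be told apart.

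Promoter sequences are shown first because the members fall into different promoter types. RefSeq sequence of build GRCm38.p6 was matched for 28 of the 43 members, and the 250 bases before the annotated start were searched on both strands. The AP-1 motif TGANTCA, a binding site of FOS and JUN proteins, was found in 3 of the 30 promoters of these members (10%, those of Mmp3 and Mmp13 and 1 of the 2 of Mmp12), and in 6.75% of all 32851 promoters. The GC box GGGCGG was found in 19 of the 30, or 63.3%, and in 32.7% of all promoters, and the TATA box TATAAA in 4, or 13.3%, and in 12.4% of all promoters. The windows below are those of Mmp3 (chr9:7445572-7445821, plus strand), Mmp13 (chr9:7272264-7272513, plus strand), Timp1 (chrX:20869916-20870165, plus strand), Timp2 (chr11:118355412-118355661, minus strand) and Adamts12 (chr15:11064523-11064772, plus strand). The first pair holds AP-1 and TATA motifs, Timp1 and Timp2 are the inhibitors with an unadjusted p under 0.05, with opposite signs of fold change, and Adamts12 had the lowest fold change of all members. They are written 5′ to 3′, and capitals mark matches to the 3 motifs on either strand.
Mmp3: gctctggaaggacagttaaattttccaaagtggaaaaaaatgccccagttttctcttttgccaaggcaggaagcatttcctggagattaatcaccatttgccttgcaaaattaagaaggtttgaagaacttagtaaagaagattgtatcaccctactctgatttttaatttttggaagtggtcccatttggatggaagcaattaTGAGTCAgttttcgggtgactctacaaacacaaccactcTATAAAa
Mmp13: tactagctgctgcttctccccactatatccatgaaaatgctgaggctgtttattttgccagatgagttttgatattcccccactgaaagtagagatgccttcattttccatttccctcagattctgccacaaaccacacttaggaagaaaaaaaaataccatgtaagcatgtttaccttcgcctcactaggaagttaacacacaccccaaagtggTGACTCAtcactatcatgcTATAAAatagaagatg
Timp1: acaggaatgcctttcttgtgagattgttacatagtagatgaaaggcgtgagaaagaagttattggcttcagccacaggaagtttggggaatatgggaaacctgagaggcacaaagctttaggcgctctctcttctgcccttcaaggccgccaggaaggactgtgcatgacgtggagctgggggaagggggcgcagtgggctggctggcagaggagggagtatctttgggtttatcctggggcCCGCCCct
Timp2: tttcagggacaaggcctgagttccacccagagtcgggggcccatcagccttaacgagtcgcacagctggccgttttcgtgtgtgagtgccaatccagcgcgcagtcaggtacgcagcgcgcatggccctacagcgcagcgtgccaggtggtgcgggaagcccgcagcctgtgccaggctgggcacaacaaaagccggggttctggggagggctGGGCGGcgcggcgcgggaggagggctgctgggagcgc
Adamts12: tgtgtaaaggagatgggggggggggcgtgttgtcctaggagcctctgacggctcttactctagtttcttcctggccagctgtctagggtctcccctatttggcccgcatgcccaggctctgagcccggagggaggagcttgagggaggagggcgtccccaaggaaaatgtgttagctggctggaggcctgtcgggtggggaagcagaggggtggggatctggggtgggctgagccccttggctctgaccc
In Mmp3 and Mmp13 the AP-1 match began 46 and 35 bases before the start. The Timp1 and Timp2 windows held 1 GC box each and 0 AP-1 matches, with 6 and 21 CpG dinucleotides against a median of 6 over all promoters. The Adamts12 window held 0 matches to the 3 motifs. A match is a description of the letters and shows no binding.

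Per length, the gelatinase gene Mmp2 and the inhibitor genes Timp2 and Timp3 were the most abundant members. Levels between genes are given as CPM per kilobase of the longest transcript, averaged over the 6 mice. Mmp2 was at 74.8, Timp2 at 67, Timp3 at 51.0 and the membrane-anchored Mmp14 at 26.5 CPM per kilobase. The next in order were Adamtsl5 at 13.4, Adamts10 at 13.3, Adamtsl4 at 12.9 and Timp1 at 11.8 CPM per kilobase, and these 4 lay closer together than the spread between mice. The union of the exons of Adamts10 spans 8254 bases, against 4121 for its longest transcript, so its place depends on the length used. The Timp genes held 40.1% of the summed level of all members, the Mmp genes 39.1%, the Adamts genes 12.5% and the Adamtsl genes 8.26%. Within families the levels spanned from 0.0900 (Mmp25) to 74.8 CPM per kilobase in Mmp and from 0.0937 (Adamts18) to 13.3 CPM per kilobase in Adamts. The neutrophil collagenase gene Mmp8 and the gelatinase gene Mmp9 were among the lowest, at 0.253 and 0.248 CPM per kilobase.

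The comparison of glycerol+melatonin with glycerol muscle addresses which of these genes differed with melatonin after the same injury. No member passed edgeR's quasi-likelihood test at an adjusted p under 0.05 (0 of 43), where 0.0738% of all 16259 genes tested passed, 0.0554% lower and 0.0185% higher. At an unadjusted p under 0.05, 11 of the 43 members were called, or 25.6%, against 19.5% of all genes. Of these, 8 were lower in glycerol+melatonin (18.6% of members, against 9.39% of all genes) and 3 were higher (6.98%, against 10.1%). DESeq2 called 3 of the 42 members it gave an adjusted p (Adamts12, Adamts5 and Adamts10), or 7.14%, against 4.85% of genes (2.72% lower and 2.13% higher). Limma-voom called 0 members (8 lower and 3 higher at an unadjusted p under 0.05), and with sample weights it called 1 (Adamts5), against 1.22% of genes. The groups did not overlap in 11 members, or 25.6%, against 26% of all genes. Of these, 8 were lower, where 12.5% of all genes were, and 3 higher (Adamts10, Adamts15 and Adamts19), where 13.6% of all genes were. The median log2 fold change was 0.03 over the members and 0.02 over all genes, with 21 members below 0 and 22 above, where 48.3% of genes were below and 51.7% above. The number of lower members at an unadjusted p under 0.05 was 3 without glycerol replicate 2 and 4 without glycerol+melatonin replicate 1. The number of higher members was 1 when glycerol replicate 1 or 2 was left out, and 5 when glycerol+melatonin replicate 1 was.

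**Figure D1:**
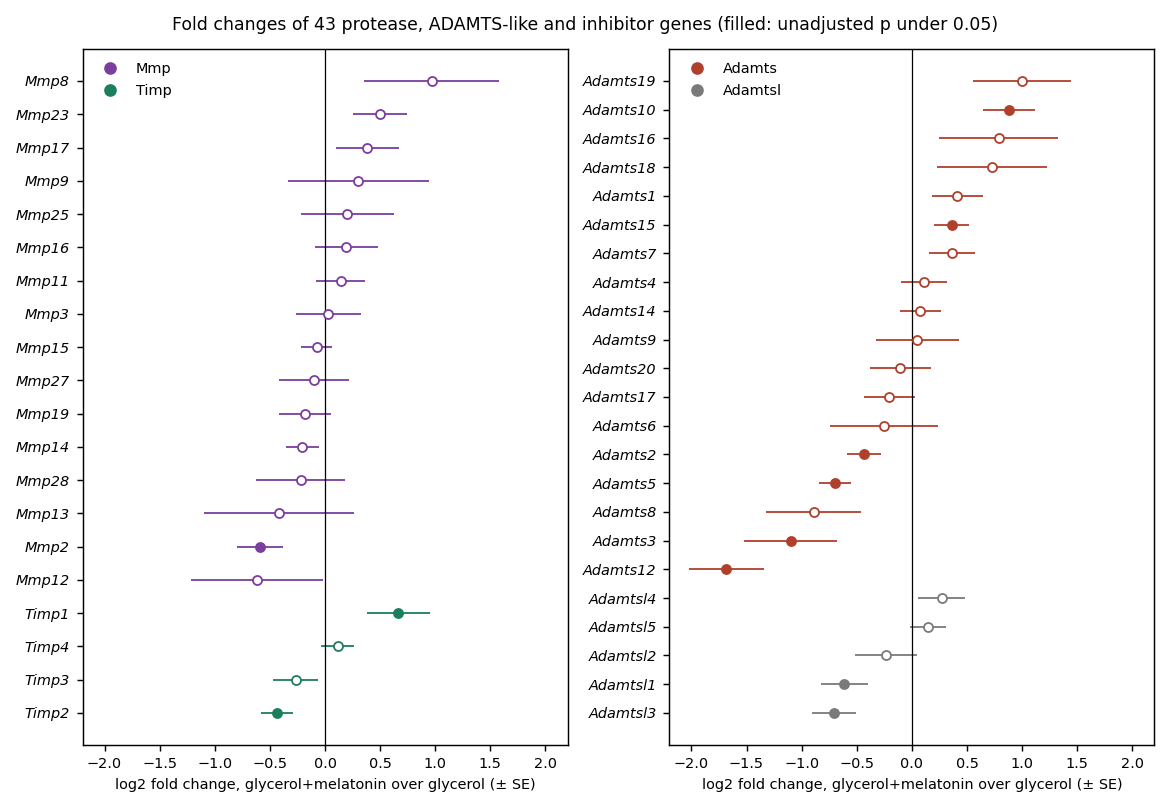
Log2 fold change of glycerol+melatonin over glycerol muscle (x axis, edgeR estimate ± SE) for each of the 43 genes (y axis), Mmp and Timp genes on the left and Adamts and Adamtsl genes on the right. Filled points have an unadjusted p under 0.05, which holds for 8 genes below 0 and 3 above, and the values ran from -1.68 for Adamts12 to 1.0 for Adamts19.

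Among gelatinases, collagenases and stromelysins, Mmp2 alone had groups that did not overlap. Mmp2, which cuts type IV collagen and gelatin, had 179, 225 and 148 CPM in glycerol+melatonin muscle and 229, 324 and 276 CPM in glycerol muscle. All 3 glycerol+melatonin mice lay below all 3 glycerol mice, and glycerol+melatonin replicate 2 came closest to glycerol replicate 1. The log2 fold change was -0.59 ± 0.21 (SE; edgeR adjusted p = 0.198). Mmp9, the other gelatinase, had 0.548, 0.517 and 1.55 CPM in glycerol+melatonin and 0.198, 1.08 and 0.833 CPM in glycerol, and the groups overlapped (0.30 ± 0.64, edgeR adjusted p = 0.825). Its sign turned without glycerol replicate 1 (-0.14) and without glycerol+melatonin replicate 3 (-0.40).

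The collagenase gene Mmp13, the main interstitial collagenase of rodents, had 3.17, 1.46 and 3.04 CPM in glycerol+melatonin and 0.593, 6.54 and 3.09 CPM in glycerol. The highest and the lowest mouse were both in the glycerol group, and the log2 fold change of -0.42 ± 0.68 (edgeR adjusted p = 0.767) was 0.47 without glycerol replicate 2. Mmp8, the collagenase of neutrophils, had 0.503, 0.443 and 1.49 CPM in glycerol+melatonin and 0.692, 0.207 and 0.343 CPM in glycerol (0.97 ± 0.61, edgeR adjusted p = 0.403). Its highest value was in glycerol+melatonin replicate 3. In that mouse the 4 neutrophil markers analysed summed to 29.6 CPM, against 4.84 to 8.21 CPM in the other glycerol+melatonin mice and 4.01 to 4.36 CPM in glycerol mice. Of these markers, 3 passed the filter on low counts and were tested. S100a9 passed it only through its glycerol+melatonin libraries, so its sign is no result. Csf3r was at 0.82 ± 0.29 (edgeR adjusted p = 0.192) and Lcn2 at 1.32 ± 0.66 (edgeR adjusted p = 0.306). S100a9 had 14, 89 and 340 counts in glycerol+melatonin and 2, 0 and 4 in glycerol. Ngp had 0, 4 and 473 counts in glycerol+melatonin and 0, 0 and 8 in glycerol, so its signal came from replicate 3 of the first group. A further 6 markers of the list were not analysed here. Without glycerol+melatonin replicate 3 the log2 fold change of Mmp8 was 0.20. The part of neutrophils in the Mmp8 value was not tested.

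Of the stromelysins and their relatives, Mmp3, which degrades a wide range of matrix proteins, had 3.77, 4.45 and 6.17 CPM in glycerol+melatonin and 3.06, 5.11 and 5.93 CPM in glycerol. The groups covered nearly the same range (0.03 ± 0.30, edgeR adjusted p = 0.968), and the sign turned under 4 other settings. Mmp12, the elastase of macrophages, had 0.685, 2.49 and 3.02 CPM in glycerol+melatonin and 5.83, 2.0 and 1.71 CPM in glycerol (-0.62 ± 0.60, edgeR adjusted p = 0.588). Glycerol replicate 1 stood above the other 5 mice, and without it the log2 fold change was 0.16. The 8 macrophage markers summed to 544 CPM in that mouse, within the 523 to 775 CPM seen over all mice. The part of macrophages in the Mmp12 value was not tested. None of the 3 genes with an AP-1 match shown or named above had an unadjusted p under 0.05 by edgeR. Each changed sign under other settings (4 for Mmp3, 1 for Mmp12 and 2 for Mmp13), so their directions are not settled.

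Of the membrane-type genes, Mmp14 and Mmp15 varied little between mice. Mmp14, the activator of MMP2 at the cell surface, had 73.0, 81.1 and 85.2 CPM in glycerol+melatonin and 93.9, 82.8 and 99.4 CPM in glycerol, with the highest value of the first group above the lowest of the second (-0.21 ± 0.15, edgeR adjusted p = 0.458). When scaled by library size alone, which moved the median of all genes up by 0.21 on the log2 scale, Mmp14 was at 0.0060. Mmp15 had 44.2, 49.1 and 45.2 CPM in glycerol+melatonin and 52.0, 44.8 and 49.2 CPM in glycerol (-0.08 ± 0.14, edgeR adjusted p = 0.788), and it turned to 0.14 with library size alone and to 0.057 with a transcript length offset. Mmp23, a membrane-bound member with an unusual domain order, had 10.8, 18.1 and 12.5 CPM in glycerol+melatonin and 8.57, 8.54 and 12.2 CPM in glycerol. Glycerol replicate 3 lay inside the range of the first group (0.50 ± 0.24, edgeR adjusted p = 0.299). The remaining 7 Mmp genes, with means of 0.408 to 14.2 CPM, had log2 fold changes from -0.22 to 0.39 and unadjusted p from 0.211 to 0.761. Of the 16 Mmp genes, 8 were below 0 and 8 above. At an unadjusted p under 0.05, 1 (Mmp2) was lower (6.25%, against 9.39% of all genes) and 0 were higher (against 10.1%).

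The Adamts family held the widest spread of fold changes, with members at both ends. Adamts12, a protease that cuts cartilage oligomeric matrix protein, had 1.71, 2.16 and 1.68 CPM in glycerol+melatonin and 6.97, 7.69 and 3.21 CPM in glycerol. The 3 glycerol+melatonin mice were close together and all below the glycerol mice, of which replicate 3 was the lowest. The means were 1.85 ± 0.267 and 5.96 ± 2.41 CPM (SD, n = 3 mice per group), 3.21-fold lower in glycerol+melatonin by the fitted fold change. The log2 fold change was -1.68 ± 0.34 (edgeR adjusted p = 0.122), and adjusted p was 2.97e-04 by DESeq2 and 0.0384 by edgeR without glycerol replicate 3, with 0.0535 to 0.398 under the other settings. Adamts12 (ENSMUSG00000047497) lies on chromosome 15 of GRCm38 from 11064790 to 11349231. Its closest relative Adamts7 had 11.2, 14.1 and 17.4 CPM in glycerol+melatonin and 12.0, 9.28 and 12.0 CPM in glycerol, with overlapping groups (0.36 ± 0.21, edgeR adjusted p = 0.365). Adamts7 shares 122 exon bases with Tbc1d2b on the other strand, which was at -0.29 ± 0.16. The log2 ratio of Adamts12 over Adamts7, per length, was -3.39, -3.38 and -4.05 in glycerol+melatonin and -1.46, -0.94 and -2.58 in glycerol.

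Among the proteoglycanases, Adamts5, the main aggrecanase of mouse cartilage, had 18.0, 15.9 and 15.8 CPM in glycerol+melatonin and 27.2, 28.8 and 24.6 CPM in glycerol. The groups lay well apart, with means of 16.6 ± 1.26 and 26.9 ± 2.15 CPM (SD, n = 3 mice per group). The log2 fold change was -0.70 ± 0.15 (edgeR adjusted p = 0.129), and adjusted p was 0.00972 by DESeq2 and 0.0462 by limma-voom with sample weights. Adamts1, its neighbour on chromosome 16 at a distance of 53059 bases, had 29.9, 49.1 and 31.6 CPM in glycerol+melatonin and 23.0, 32.7 and 27.5 CPM in glycerol. Its groups overlapped (0.41 ± 0.23, edgeR adjusted p = 0.348), and the log2 ratio of Adamts1 over Adamts5 was higher in every glycerol+melatonin mouse (1.88, 2.77 and 2.14) than in any glycerol mouse (0.90, 1.33 and 1.3).

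A second pair of neighbours, Adamts15 and Adamts8 on chromosome 9 at a distance of 20109 bases, had signs that differed likewise. Adamts15, which cuts versican, had 14.7, 17.0 and 14.1 CPM in glycerol+melatonin and 11, 12.3 and 12.3 CPM in glycerol, without overlap (0.36 ± 0.16, edgeR adjusted p = 0.254). Adamts8 had 1.55, 3.30 and 2.36 CPM in glycerol+melatonin and 2.87, 7.48 and 3.06 CPM in glycerol. Glycerol replicate 2 stood above the rest (-0.89 ± 0.43, edgeR adjusted p = 0.293), and without it the value was -0.30. The log2 ratio of Adamts15 over Adamts8 was 2.53, 1.66 and 1.87 in glycerol+melatonin and 1.23, 0.01 and 1.3 in glycerol. Adamts4, an aggrecanase, had 4.11, 4.39 and 5.83 CPM in glycerol+melatonin and 4.10, 4.70 and 4.46 CPM in glycerol, and the groups overlapped (0.11 ± 0.21, edgeR adjusted p = 0.798). It turned to -0.051 without glycerol+melatonin replicate 3. Adamts8 shares 489 and Adamts9 1381 exon bases on the other strand with genes not analysed here, so their levels are uncertain if reads were counted without strand. The long GON-domain proteases were level between groups but not between mice. Adamts9 had 23.3, 22.5 and 9.62 CPM in glycerol+melatonin and 20.9, 10.7 and 22.0 CPM in glycerol, with 1 low mouse in each group. Adamts20 had 6.78, 14.9 and 13.1 CPM in glycerol+melatonin and 13.4, 12.3 and 11.8 CPM in glycerol, with replicate 1 of the first group lowest.

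The procollagen N-propeptidases remove the amino-terminal propeptide of fibrillar procollagens. Adamts2 had 40.4, 49.4 and 39.6 CPM in glycerol+melatonin and 51.6, 62.2 and 61.0 CPM in glycerol, without overlap (-0.43 ± 0.16, edgeR adjusted p = 0.200). Adamts3 had 0.183, 0.388 and 0.404 CPM in glycerol+melatonin and 0.519, 0.829 and 0.759 CPM in glycerol, also without overlap (-1.10 ± 0.42, edgeR adjusted p = 0.217). Adamts14 had 7.83, 10.2 and 10.7 CPM in glycerol+melatonin and 9.26, 8.15 and 9.77 CPM in glycerol, and its groups overlapped (0.08 ± 0.19, edgeR adjusted p = 0.845). The log2 ratio of Adamts2 over Adamts14 was 1.88, 1.80 and 1.40 in glycerol+melatonin and 1.99, 2.45 and 2.16 in glycerol, so the groups did not overlap. That of Adamts3 over Adamts2 was -6.91, -6.11 and -5.73 in glycerol+melatonin and -5.75, -5.35 and -5.44 in glycerol, with overlap. Of the fibrillar procollagen genes on the substrate list, Col1a1 was at -0.39 ± 0.24, Col3a1 at -0.37 ± 0.22 and Col2a1 at -0.65 ± 0.36, each with overlapping groups. Col1a2 was at -0.39 ± 0.19 and Col5a1 at -0.30 ± 0.16, and their groups did not overlap, while none of the 5 had an unadjusted p under 0.05.

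Adamts10, which acts with fibrillin microfibrils and whose loss in humans causes Weill-Marchesani syndrome, was the most abundant Adamts transcript and the member with the smallest p among those above 0. It had 55.5, 75.3 and 81.9 CPM in glycerol+melatonin and 34.3, 29.9 and 51.3 CPM in glycerol. All glycerol+melatonin mice lay above all glycerol mice, with means of 70.9 ± 13.7 and 38.5 ± 11.3 CPM (SD, n = 3 mice per group). The log2 fold change was 0.88 ± 0.24, a 1.84-fold higher level (edgeR adjusted p = 0.152), and adjusted p was 0.0255 by DESeq2. Its relative Adamts6 had 0.480, 1.75 and 0.830 CPM in glycerol+melatonin and 1.21, 1.66 and 0.808 CPM in glycerol, with overlap (-0.25 ± 0.49, edgeR adjusted p = 0.807). The log2 ratio of Adamts10 over Adamts6 was 7.76, 6.33 and 7.52 in glycerol+melatonin and 5.73, 5.07 and 6.89 in glycerol, and the groups overlapped. Fibrillin-1 (Fbn1), the microfibril protein, was at 81.0 ± 5.61 CPM in glycerol+melatonin and 139.9 ± 8.79 CPM in glycerol. Adamts19, a protease with few known substrates, had 0.799, 1.35 and 1.21 CPM in glycerol+melatonin and 0.247, 0.645 and 0.784 CPM in glycerol, the 3 glycerol+melatonin mice all above the others (1.0 ± 0.44, edgeR adjusted p = 0.261). Over the 18 Adamts genes, 8 were below 0 and 10 above. At an unadjusted p under 0.05, 4 were lower (22.2%, against 9.39% of all genes) and 2 higher (11.1%, against 10.1%).

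**Figure D2:**
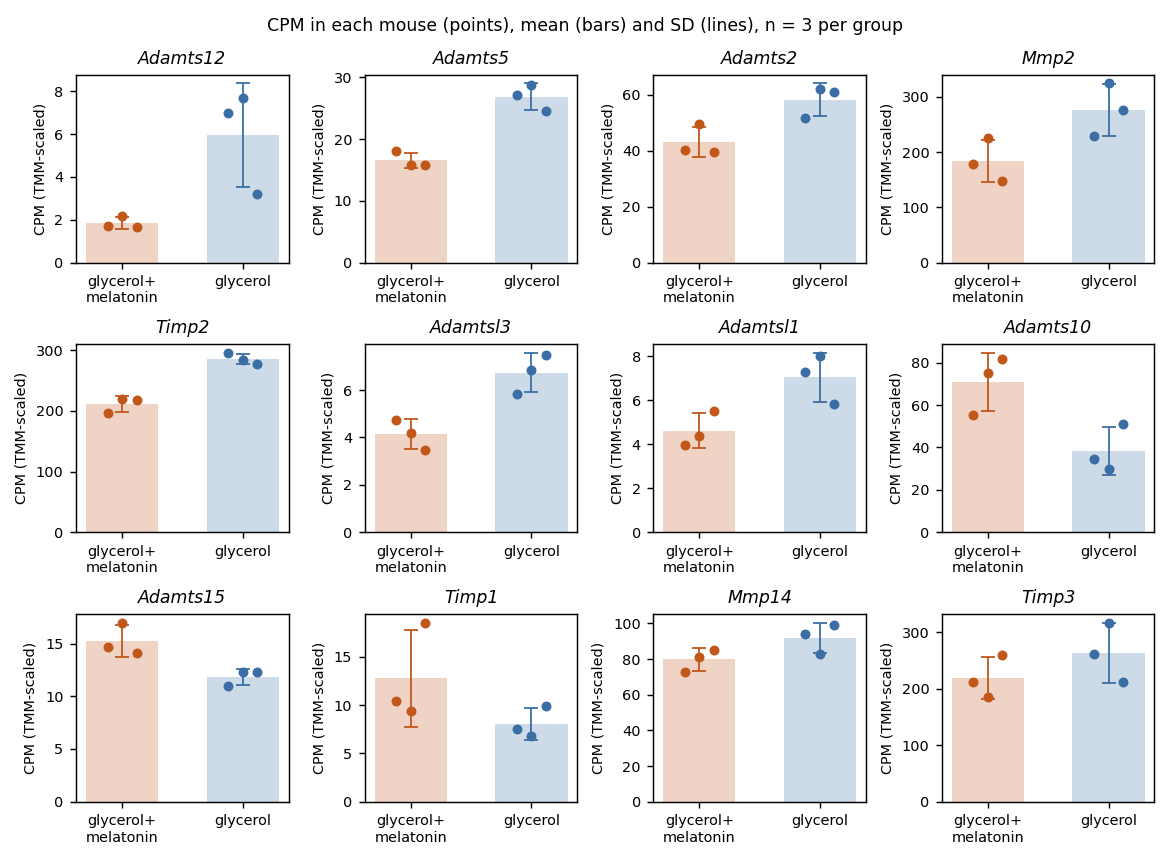
CPM (y axis, scaled by TMM factors) of 12 genes in each mouse, glycerol+melatonin left and glycerol right. Points are mice, bars group means and lines the SD (n = 3 mice per group). The groups do not overlap in 9 of the 12 genes, while Timp1, Mmp14 and Timp3 overlap. The choice of genes favours such separation, as all but Mmp14 and Timp3 have an unadjusted p under 0.05 by edgeR. Over all 43 members the groups do not overlap in 11, or 25.6%, against 26% of all genes.

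Of the 5 ADAMTS-like genes, Adamtsl1 and Adamtsl3 had groups that did not overlap (40%, where 12.5% of all genes were lower without overlap). At an unadjusted p under 0.05 by edgeR, 2 were lower (40%, against 9.39% of all genes) and 0 higher (against 10.1%). Adamtsl4 and Adamtsl5, whose proteins bind fibrillin-1 and microfibrils, were the abundant members and showed overlapping groups. Adamtsl4 had 63.1, 44.4 and 63.6 CPM in glycerol+melatonin and 55.3, 50.3 and 36.2 CPM in glycerol (0.27 ± 0.21, edgeR adjusted p = 0.494). Adamtsl5 had 60.3, 51.0 and 62.1 CPM in glycerol+melatonin and 59.1, 52.9 and 44.7 CPM in glycerol (0.15 ± 0.16, edgeR adjusted p = 0.641). The scarcer Adamtsl3 had 4.73, 4.19 and 3.47 CPM in glycerol+melatonin and 5.86, 6.86 and 7.50 CPM in glycerol. Adamtsl1 had 3.95, 4.37 and 5.49 CPM in glycerol+melatonin and 7.26, 8.01 and 5.83 CPM in glycerol. Neither gene's groups overlapped, and the log2 fold changes were -0.71 ± 0.20 for Adamtsl3 (edgeR adjusted p = 0.164) and -0.61 ± 0.21 for Adamtsl1 (edgeR adjusted p = 0.194). Adamtsl2, whose loss in humans causes geleophysic dysplasia, had 3.70, 5.11 and 2.96 CPM in glycerol+melatonin and 3.34, 5.48 and 5.07 CPM in glycerol (-0.24 ± 0.28, edgeR adjusted p = 0.662).

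The 4 inhibitors did not share a direction. Timp2, the partner of Mmp14 and Mmp2, had 196, 219 and 218 CPM in glycerol+melatonin and 295, 283 and 278 CPM in glycerol. Relative to its mean it had the lowest SD of the 11 members whose groups did not overlap (6.02% and 3.12%), with means of 211 ± 12.7 and 286 ± 8.92 CPM (SD, n = 3 mice per group). Its log2 fold change was -0.44 ± 0.15 (edgeR adjusted p = 0.188). Timp1, the inhibitor that injury and inflammation induce in many tissues, had 10.4, 9.39 and 18.5 CPM in glycerol+melatonin and 7.49, 6.75 and 9.92 CPM in glycerol. Glycerol+melatonin replicate 3 was highest and the groups overlapped (0.67 ± 0.29, edgeR adjusted p = 0.253). Without that mouse the value was 0.30, and with a transcript length offset it was 0.39 (Timp1 has the shortest transcript of the members, 883 bases). Timp3, which binds to the matrix and also inhibits ADAMTS proteases, had 213, 185 and 259 CPM in glycerol+melatonin and 261, 317 and 212 CPM in glycerol (-0.27 ± 0.21, edgeR adjusted p = 0.490). Timp3 shares 1733 exon bases with Syn3 on the other strand, and Syn3 was at 2.72 and 1.28 CPM in the 2 groups. Timp4, found mainly in muscle, heart and fat, had 54.8, 50.1 and 43 CPM in glycerol+melatonin and 41.5, 45.9 and 49.3 CPM in glycerol (0.11 ± 0.15, edgeR adjusted p = 0.706). The log2 ratio of Timp1 over Timp2 was -2.17, -2.47 and -1.48 in glycerol+melatonin and -3.23, -3.32 and -2.74 in glycerol.

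Proteases were set against inhibitors by their levels per kilobase within each mouse, as a description. Summed Mmp levels were 112, 134.3 and 112 CPM per kilobase in glycerol+melatonin and 134.1, 163 and 156 in glycerol, so the groups overlapped narrowly. Without Mmp2 the sums were 53.4, 61.3 and 63.7 CPM per kilobase in glycerol+melatonin and 59.6, 57.9 and 66.7 in glycerol, with overlap. Summed Timp levels were 119.7, 118 and 142 CPM per kilobase in glycerol+melatonin and 151, 159.6 and 140.0 in glycerol. The log2 ratio of summed Mmp over summed Timp was therefore near 0 in both groups, at -0.10, 0.19 and -0.35 in glycerol+melatonin and -0.17, 0.03 and 0.16 in glycerol. Summed Adamts levels were 39.4, 53.0 and 47.9 CPM per kilobase in glycerol+melatonin and 37.2, 38.8 and 43.1 in glycerol. Their log2 ratio over summed Timp was higher in each glycerol+melatonin mouse, at -1.60, -1.15 and -1.57, than in any glycerol mouse, at -2.02, -2.04 and -1.70. Group means of this ratio were -1.44 in glycerol+melatonin and -1.92 in glycerol. With the union of exons as length they were -1.68 and -2.06. The Adamts sum without Adamts10 was 26, 34.7 and 28.0 CPM per kilobase in glycerol+melatonin and 28.8, 31.6 and 30.7 in glycerol. Without Adamts10 the log2 ratio over summed Timp was -2.21, -1.76 and -2.35 in glycerol+melatonin and -2.39, -2.34 and -2.19 in glycerol, so that the groups overlapped.

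Single pairs of protease and inhibitor differed from each other. Mmp2 over Timp2 was at 0.14, 0.31 and -0.29 on the log2 scale in glycerol+melatonin and at -0.10, 0.46 and 0.26 in glycerol, with overlap, as both genes were lower. Mmp14 over Timp2 was at -1.23, -1.24 and -1.16 in glycerol+melatonin and at -1.46, -1.58 and -1.29 in glycerol, without overlap. Adamts5 over Timp3 was at -4.75, -4.73 and -5.23 in glycerol+melatonin and at -4.46, -4.65 and -4.30 in glycerol, without overlap. Mmp9 over Timp1 was at -6.09, -6.03 and -5.42 in glycerol+melatonin and at -7.09, -4.49 and -5.42 in glycerol, where the glycerol mice alone spanned the whole range.

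**Figure D3:**
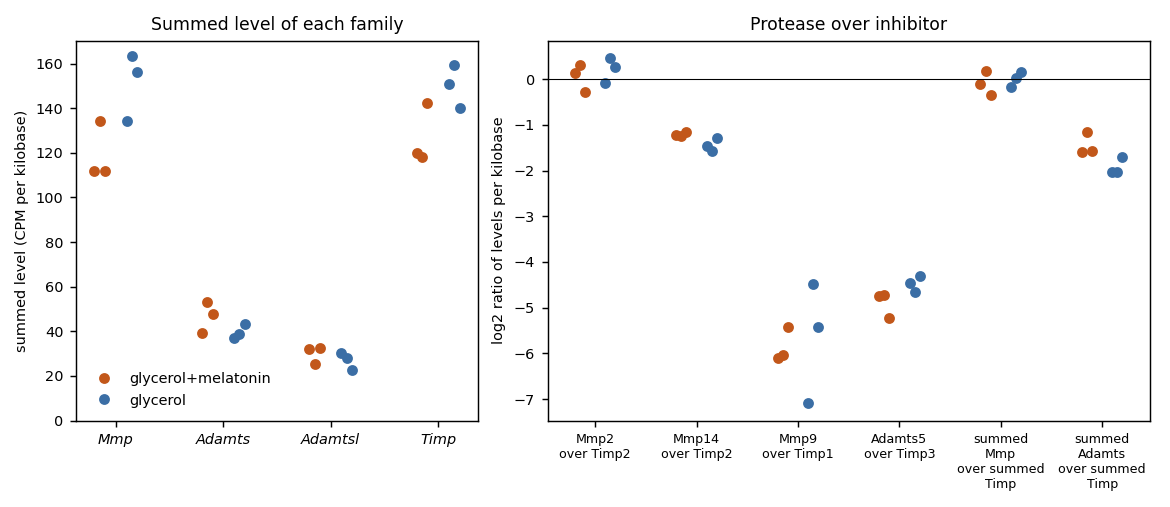
Left, summed level of each family (y axis, CPM per kilobase of the longest transcript) in each mouse. Right, log2 ratio of protease over inhibitor levels per kilobase (y axis) for 4 gene pairs and for the summed families, with points for glycerol+melatonin mice left of those for glycerol mice, and the summed Adamts ratio is higher in all 3 glycerol+melatonin mice (-1.60 to -1.15) than in the glycerol mice (-2.04 to -1.70), a separation that is lost without Adamts10.

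Cell markers and transcript length moved with part of these values. Fibro-adipogenic progenitors are stromal cells that make much of the matrix of injured muscle. Their 8 markers summed to 684 to 733 CPM in glycerol+melatonin and to 791 to 1135 CPM in glycerol. Dcn was the largest part of each sum, at 345 to 397 CPM in glycerol+melatonin and 501 to 822 CPM in glycerol. Cd34, the next largest, had overlapping groups. Of the 8 markers, 5 were below 0 (Pdgfra, Dcn, Dpp4, Osr1 and Hsd11b1), all with an unadjusted p under 0.05 (62.5%, against 9.39% of all genes lower). The other 3 (Pi16, Cd34 and Ly6a) were above 0, and no marker was at 0 in any library. The part of these cells in the lower values of Mmp2, Timp2, Adamts2, Adamts5 and Adamts12 was not tested. The 7 cartilage and bone markers analysed summed to 12.6 to 17.3 CPM in glycerol+melatonin and to 20.3 to 24.5 CPM in glycerol. Below 0 were 6 of 7, against 48.3% of all genes. Only Ibsp, Col10a1 and Runx2 had groups without overlap (42.9%, where 12.5% of all genes were lower without overlap). Ibsp was at 0.0851 to 0.845 CPM in glycerol+melatonin and 3.09 to 5.18 CPM in glycerol. The 6 tendon markers summed to 244 to 513 CPM in glycerol+melatonin and to 531 to 650.0 CPM in glycerol. Below 0 were 5 of 6 (83.3%, against 48.3% of all genes). Only Fmod and Thbs4, the most abundant tendon markers, had groups without overlap (33.3%, against 12.5% of all genes). The part of cartilage, bone and tendon cells in the lower values was not tested either. Longer transcripts had lower fold changes over the whole table. The median log2 fold change was 0.28 in the shortest of 5 equal classes of transcript length and -0.14 in the longest, where 15.1% of genes were lower at an unadjusted p under 0.05. That longest class held 20 of the 43 members, of which 5, or 25%, were lower at an unadjusted p under 0.05. With transcript length as an offset in the edgeR fit, 6 members were lower at an unadjusted p under 0.05 (13.95%, against 7.88% of genes) and 5 higher (11.6%, against 9.12%). Adamts12 was then at -1.47, Adamts5 at -0.50, Mmp2 at -0.55, Timp2 at -0.35 and Adamts10 at 0.98. With this offset 3 members were no longer past an unadjusted p of 0.05, Adamts2 at -0.27 (unadjusted p = 0.134), Adamtsl1 at -0.43 (0.056) and Timp1 at 0.39 (0.191).

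**Figure D4:**
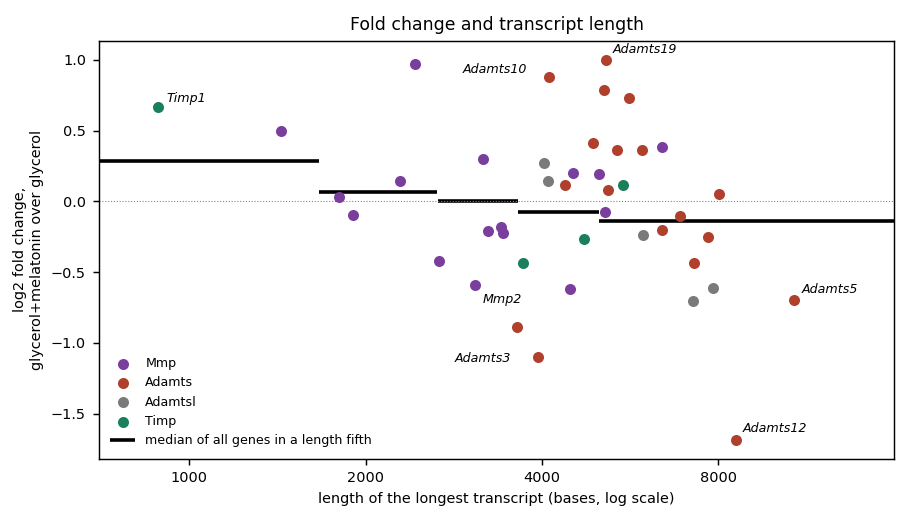
Log2 fold change of glycerol+melatonin over glycerol (y axis) against the length of the longest transcript (x axis, bases, log scale) for the 43 genes, coloured by family. Black lines are medians of all genes in 5 equal classes of transcript length, from 0.28 in the shortest to -0.14 in the longest, and Adamts12 lies farthest below its line.

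Regulators and substrates of these proteases were described from lists that the members are not part of. Of 16 tested activators and regulators, 11 were below 0 with a median of -0.31, and 6 were lower and 0 higher at an unadjusted p under 0.05 (37.5%, against 9.39% of genes lower), while 0 passed by edgeR over all genes. The proprotein convertases, which cut the propeptide from many ADAMTS and membrane-type MMP precursors, were among them. Pcsk6 was at 15.3 ± 4.16 CPM in glycerol+melatonin and 28.8 ± 6.10 CPM in glycerol (-0.91 ± 0.25, edgeR adjusted p = 0.152). Pcsk5 was at 7.75 ± 0.381 CPM in glycerol+melatonin and 12.2 ± 0.819 CPM in glycerol (-0.65 ± 0.16, edgeR adjusted p = 0.137), and the proteoglycan gene Spock2 was at -0.85 ± 0.21. Reck, a membrane-anchored inhibitor of MMPs, was at -0.47 ± 0.19 (edgeR adjusted p = 0.237).

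Of 15 other metalloproteinases, mainly of the ADAM family, 9 were below 0 with a median of -0.10, and 1 was lower and 1 higher at an unadjusted p under 0.05 (6.67% each, against 9.39% and 10.1% of all genes). The lower was Adam9, a membrane-anchored sheddase, at 19.3 ± 7.46 CPM in glycerol+melatonin and 55.6 ± 8.99 CPM in glycerol (-1.52 ± 0.29, edgeR adjusted p = 0.117). The higher was Adam33, at 14.2 ± 2.93 CPM in glycerol+melatonin and 9.30 ± 2.39 CPM in glycerol (0.61 ± 0.24, edgeR adjusted p = 0.226). Of 18 ADAMTS substrates and microfibril genes, 15 were below 0 with a median of -0.29 and 3 were lower at an unadjusted p under 0.05 (16.7%, against 9.39% of all genes), Fbn1 (-0.79 ± 0.14), the neuronal and lymphatic matrix protein gene Reln (-0.87 ± 0.28) and Thbs2 (-0.50 ± 0.19). The proteoglycan versican (Vcan) was at -0.07 ± 0.28 and aggrecan (Acan) at 0.06 ± 0.32. Of 15 basement membrane and other MMP substrates, 14 were below 0 with a median of -0.30, and 3 were lower at an unadjusted p under 0.05 (20%, against 9.39% of all genes). These were the nidogen gene Nid1 (-0.75 ± 0.18), the laminin gene Lama2 (-0.87 ± 0.22) and decorin (Dcn, -0.81 ± 0.21), against 48.3% of all genes below 0 and a median of 0.02. These counts are descriptions, as genes of a list are not replicates. Median transcript lengths were 6300.5 bases for the ADAMTS substrate list and 6091 bases for the MMP substrate list, both within the longest length class. In that class 15.1% of genes were lower, with a median of -0.14. The regulator list, at 4223.5 bases, falls in the next longest class (13.2% lower, median -0.08). The part of transcript length in these counts was not tested.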

How the data were processed

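Whole-tissue RNA-seq of 6 mice, 3 per group, was analysed from 1 table of raw read counts per gene that the authors deposited. Per the submitters' processing notes, processing used HISAT2 2.0, StringTie 1.3.3b, Trimmomatic 0.36, DESeq2 1.12.4, FastQC 0.11.2 and bedtools 2.26.0, with build mm10. The counting tool, its annotation and its handling of strand and of multiply matching reads are not stated there, so reads of genes on opposite strands may be mixed. The smallest total of a gene in the table is 28. Columns were matched to samples by treatment code and replicate number. Symbols, positions and lengths came from GENCODE M21 on GRCm38, the assembly of mm10 (16260 of 16289 genes).

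Genes were tested on all 6 libraries without covariates by the quasi-likelihood test of edgeR 4.0.16 in R 4.3.3, after filterByExpr (16259 genes kept) and TMM scaling, with Benjamini-Hochberg adjustment over all genes and a threshold of 0.05. SE is the log2 fold change divided by the square root of F. CPM are scaled by TMM factors. The scripts were tested on simulated data. Alternatives were other scalings, filters, DESeq2 1.42.0, limma 3.58.1's voom, a replicate block, offsets for transcript length and GC (splines with 4 degrees of freedom) and leaving out each library. Members, lists and tests were chosen with earlier results of these data known. Values per mouse were given by rule for 26 members: the 14 with the smallest p and a mean of at least 1 CPM, the Timp genes, the 3 most abundant of each other family and a fixed set. Other members named singly were chosen after their values were seen. Ratios between related genes are descriptions, with no share over other gene pairs beside them. No pair of libraries within a group agreed within counting noise (chi-square statistic over degrees of freedom, 65.8 to 181). The series' text calls them biological replicates. Over all genes, the spread between mice exceeded counting noise at this depth. For the 7 members with a mean under 1 CPM, Adamts3 and Adamts19 among them, counts were as low as 6 in a library. Counting noise also limits the precision of these members.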

Additional observations from a re-analysis of the deposited data

How the results depend on the processing

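Of 26 members with values per mouse, 19 kept the sign of their log2 fold change under every alternative run, all 10 of the 26 with an unadjusted p under 0.05 included. The number of genes that passed was 12, against 744 by DESeq2, 199 by limma-voom with sample weights, 7 with a transcript length offset, 59 at an adjusted p under 0.1 and 6 to 27 when single libraries were left out. With the replicate number as a block, 0 genes passed by edgeR (2991 at an unadjusted p under 0.05, with 9 members lower and 4 higher). The numbers did not pair the mice, as deviations of same-numbered mice correlated at -0.01, -0.011 and -0.049 and 0 of 6 libraries correlated best with their own number. Members that passed were 0, against 3 by DESeq2, 1 by limma-voom with sample weights and 0 to 1 when single libraries were left out. Members lower at an unadjusted p under 0.05 were 8, against 2 with library size alone and 3 to 8 when libraries were left out. Members higher were 3, against 7 with library size alone, 5 with a transcript length offset and 1 to 5 when libraries were left out. Library size alone moved the medians by about the 0.21 that all genes moved: Mmp to 0.19 (3 members below 0), Adamts to 0.26 (5 below 0), Adamtsl to -0.032 and Timp to 0.14. The Adamtsl median of -0.24 was -0.036 by limma-voom with sample weights, -0.090 with a transcript length offset and -0.48 to -0.066 without single libraries. The Timp median of -0.08 was 0.060 with a transcript length offset and 0.082 with length and GC offsets. Reversed values were those of Adamts4 (-0.051 without glycerol+melatonin replicate 3), Mmp12 (0.16 without glycerol replicate 1), Mmp13 (0.027 by limma-voom, 0.47 without glycerol replicate 2), Mmp14 (0.0060 with library size alone) and Mmp15 (0.14 with library size alone, 0.057 with a length offset). Mmp3 was at -0.10 with a length offset, -0.028 with length and GC offsets, -0.20 without glycerol replicate 1 and -0.19 without glycerol+melatonin replicate 3, and Mmp9 at -0.14 and -0.40 without the same libraries. When single libraries were left out, the lowest or highest value on the other side was -0.98 for Mmp12, -0.91 for Mmp13, 0.23 for Mmp3 and 0.75 for Mmp9. Apart from the offsets, which take out a trend with length, and library size alone, the cause was not tested. No member shared exon bases with a gene on the same strand, so summing such genes was not run.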
